A study of Mus musculus with 16 samples.

Results

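Primary mouse osteoblasts that received the Bicc1 siRNA BICC1_2 were compared with osteoblasts that received the Bicc1 siRNA BICC1_3, the pair with the lowest and the highest level of the targeted transcript among the Bicc1 siRNAs of the study. The comparison used 8 of 16 single-colour Illumina bead arrays, chosen by their titles, 4 labelled BICC1_2 and 4 labelled BICC1_3. The other arrays were 4 of a further Bicc1 siRNA, BICC1_1, and 4 of a scrambled control siRNA, SC, and they entered the normalisation, the choice of probes and the shared estimate of spread, and their levels are given beside the comparison. All 4 groups were primary calvarial osteoblasts, cells that lay down the bone of the skull, from C57BL6/J neonates of mixed gender aged 3 to 9 days. All were plated at 150000 cells per well, transfected with Lipofectamine 2000 about 24 hours later, and harvested for RNA 48 hours after transfection. The labels give no dose or sequence of an siRNA, and they do not say whether the replicates were separate cultures, so a p-value covers only the scatter among the arrays at hand, which may be technical.

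Bicc1 encodes an RNA-binding protein with KH domains, which hold RNA, and a SAM domain, which lets it assemble with partners such as ANKS3. It binds messenger RNAs and can bring silencing machinery to them, and mice without it develop cystic kidneys. In bone it has been tied to the polycystins and to osteoblast differentiation, a process that BMP and Wnt ligands drive and that their secreted antagonists restrain.

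Osteoblast transcripts were present. Of 9 osteoblast markers on the array, 7 were detected on all 8 arrays, among them the collagen genes Col1a1 and Col1a2, the matrix gene Sparc and the transcription factor gene Sp7, while Bglap (osteocalcin, a marker of mature osteoblasts) was detected on none and Ibsp on 1. Of 7 macrophage markers, 5 were detected on all 8 arrays, and of 5 endothelial markers 4 were detected on none. The 8 arrays had median intensities of 86.6 to 111.3, detected 12074 to 12863 probes each and correlated pairwise at 0.973 to 0.997. BICC1_3 replicate 1 stood apart: relative to the SC mean, the median log2 level of its respiratory complex I genes was -1.43 and that of its cytoplasmic ribosomal protein genes -0.79. BICC1_2 replicate 3 lay at -0.22 and -0.09 for the same gene groups, and the other 6 arrays lay within -0.07 and 0.05. Results are therefore given with all arrays and without these 2. Outside the comparison, BICC1_1 replicate 3 lay at -0.72 and -0.49 for the same gene groups. It stayed in the shared estimate of spread both ways, and a fit without it as well is given at the end.

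Bicc1 itself was low on every BICC1_2 array and at the control level on every array labelled BICC1_3. Its log2 intensity, read by 1 probe on chromosome 10, was 8.87, 9.04, 9.27 and 8.69 on the BICC1_2 arrays (mean 8.97 ± 0.25 SD, n = 4), against 10.70, 10.39, 10.39 and 10.33 on the arrays labelled BICC1_3 (10.45 ± 0.17), while SC arrays averaged 10.55 ± 0.12. The groups did not overlap, and Bicc1 stood at 35.7% of its level in the arrays labelled BICC1_3 (95% interval 29.5 to 43.2). The difference was -1.49 log2, and -1.51 without the 2 arrays. No test is given, because the pair was picked for the strength of its Bicc1 loss. Loss of the transcript was not detected in the arrays labelled BICC1_3, so each direction below is one between BICC1_2 arrays and arrays in which Bicc1 stood at the level of SC.

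Few transcripts differed besides Bicc1. Of 9560 genes or unnamed probes tested, 11 had an adjusted p under 0.05 by limma's moderated test with Benjamini-Hochberg adjustment (0.115%). This count includes Bicc1, whose place in it was fixed by the choice of the pair and is no result, which leaves 10 others. There were 2 higher in BICC1_2 (0.0209%), the ligand gene Bmp4 and the antagonist gene Sostdc1. There were 9 lower (0.0941%), which besides Bicc1 were Ergic1, Atg5, Lrrc8a, Rrm2b, Get1, Tgfb1, Tnrc6c and an unnamed probe. Without the 2 arrays that stood apart, 4 were left (0.0418%), all lower and all among the 11, which besides Bicc1 were Ergic1, Atg5 and Lrrc8a. At an unadjusted p under 0.05 there were 792 genes (8.28%), 437 higher (4.57%) and 355 lower (3.71%), where 478 are expected if no gene differed. Without the 2 arrays there were 658 (6.88%). The 10 genes or probes other than Bicc1 all had groups that did not overlap, as 367 of the 9560 did (3.84%), 199 above (2.08%) and 168 below (1.76%). Among the 3 against 3 arrays left without the 2 arrays, 1184 did (12.4%).

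**Figure D1:**
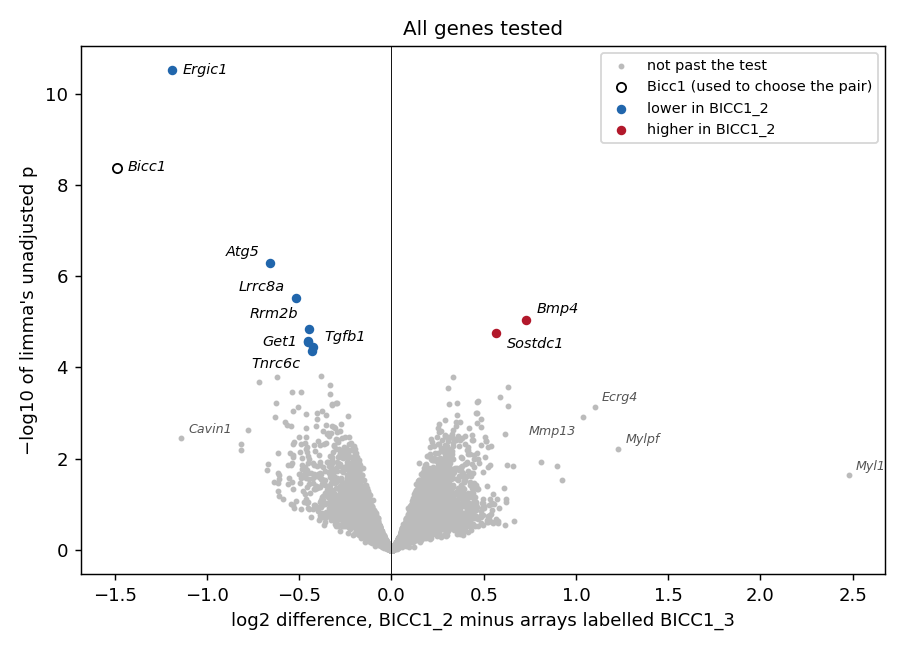
Each point is 1 of the 9560 genes or unnamed probes tested, with the log2 difference of BICC1_2 minus arrays labelled BICC1_3 on the horizontal axis and -log10 of limma's unadjusted p on the vertical axis. The open circle is Bicc1, drawn as a description, and the 10 coloured points passed the test. Ergic1 stands far above the other coloured points, and Myl1, Mylpf, Ecrg4, Mmp13 and Cavin1 have large differences with p-values that did not pass after adjustment.

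For most genes the data bound the difference. The 95% interval lay within 0.5 log2 on either side of 0 for 7951 genes (83.17%) and within 1 log2 for 9393 (98.25%). The fitted difference reached 0.5 log2 for 99 genes, 52 higher and 47 lower, and for 30 without the 2 arrays. It reached 1 log2 for 7 genes. One is Bicc1, and of the others Ergic1 passed the test.

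Ergic1 gave the lowest p of all genes. Its product, from a gene on chromosome 17, is a membrane protein that shuttles in the traffic from the endoplasmic reticulum to the Golgi. Its log2 intensity was 11.11, 11.34, 11.20 and 11.08 on the BICC1_2 arrays, against 12.44, 12.29, 12.26 and 12.51 on the arrays labelled BICC1_3. The gap between the groups was wide next to the scatter within them. Ergic1 stood at 43.8% of its level in the arrays labelled BICC1_3 (95% interval 39.2 to 48.8), a fall of 1.19 log2 (SE 0.07, adjusted p = 2.91e-07 by limma). SC arrays averaged 12.29 ± 0.02 and BICC1_1 arrays 12.33, so the BICC1_2 arrays were the low ones.

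Atg5, on chromosome 10, encodes a protein that is joined to ATG12 to let autophagosome membranes grow. Its log2 intensity was 9.60, 9.73, 9.74 and 9.68 on the BICC1_2 arrays, against 10.13, 10.37, 10.52 and 10.36 on the arrays labelled BICC1_3. Every BICC1_2 array was below every array labelled BICC1_3, and SC arrays (10.27 ± 0.05) lay with BICC1_3. Atg5 fell to 63.3% of its level in the arrays labelled BICC1_3 (56.2 to 71.4), a difference of -0.66 log2 (adjusted p = 0.00164 by limma), and -0.75 without the 2 arrays (adjusted p = 0.000415). A further Atg5 probe gave -0.70. The call was lost when the fit held only the 8 arrays (adjusted p = 0.155) and with median scaling (0.157).

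Lrrc8a, on chromosome 2, encodes the required subunit of the volume-regulated anion channel. Its log2 intensity was 8.37, 8.35, 8.38 and 8.30 on the BICC1_2 arrays, against 8.71, 8.87, 8.97 and 8.93 on the arrays labelled BICC1_3. BICC1_2 arrays were low and nearly equal, and SC arrays, at 8.68 ± 0.06, lay between the groups. The fall was 0.52 log2 (SE 0.07, adjusted p = 0.00727 by limma), or 69.7% of the level in the arrays labelled BICC1_3 (62.5 to 77.8). A further and dimmer Lrrc8a probe went the other way, at 6.35 in BICC1_2 and 6.01 in the arrays labelled BICC1_3 (0.34 log2, adjusted p = 0.505 over all kept probes), so the 2 probes disagree. The fall of the brighter probe was also not past the test when the fit held only the 8 arrays (adjusted p = 0.249) and with median scaling (0.157), and it was -0.34 with the authors' table, where it passed.

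**Figure D2:**
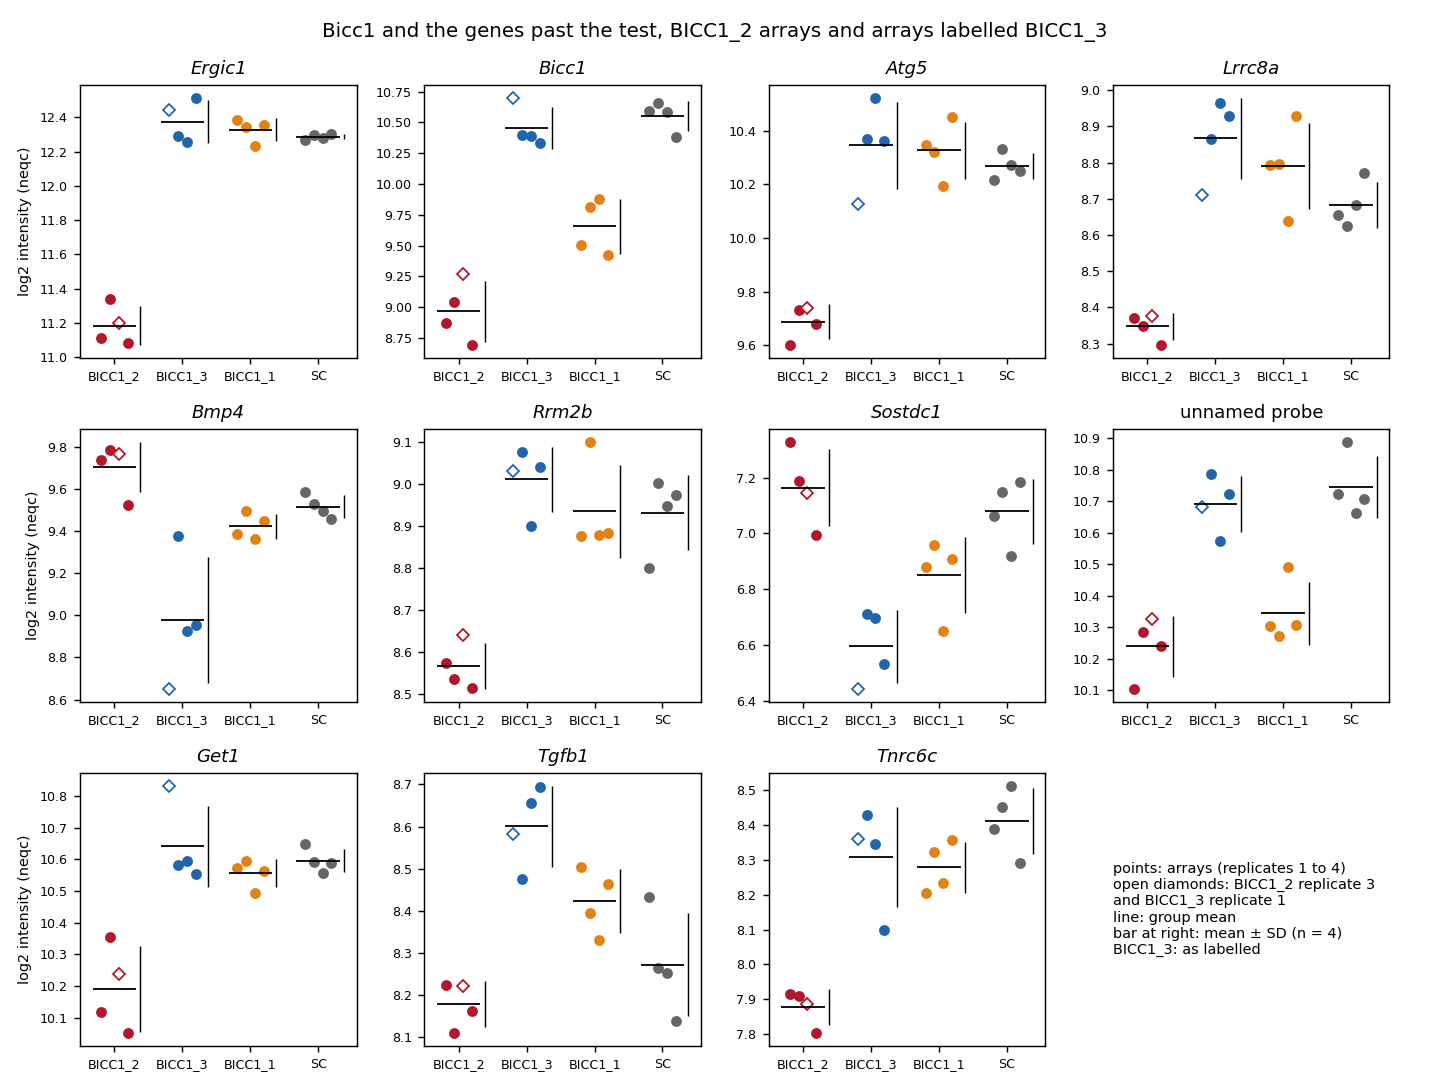
Log2 intensity on each array for Bicc1 and the 10 genes or probes that passed the test, in BICC1_2, arrays labelled BICC1_3, BICC1_1 and SC, with group means as lines, bars of 1 SD on either side of the mean (n = 4 each) and open diamonds for the 2 arrays that stood apart. Ergic1, Atg5, Rrm2b, Get1 and Tnrc6c are low in BICC1_2 with the other groups together, while Bmp4 and Sostdc1 are low in the arrays labelled BICC1_3.

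Among the genes past the test were 3 that encode secreted signals, and none of these passed without the 2 arrays. Bmp4, on chromosome 14, encodes a ligand that drives osteoblast differentiation. Tgfb1, on chromosome 7, encodes TGF-beta 1, a growth factor stored in bone matrix. Sostdc1, on chromosome 12, encodes a secreted antagonist of BMP and Wnt signals. The RefSeq promoters (GRCm38.p6) of both ligand genes, which differed in opposite directions, are shown 5′ to 3′ from 250 bases before to 50 after the gene start, with matches to the E-box motif CANNTG in capitals. Bmp4 is at chr14:46390620-46390919 on the minus strand and Tgfb1 at chr7:25686752-25687051 on the plus strand.
Bmp4: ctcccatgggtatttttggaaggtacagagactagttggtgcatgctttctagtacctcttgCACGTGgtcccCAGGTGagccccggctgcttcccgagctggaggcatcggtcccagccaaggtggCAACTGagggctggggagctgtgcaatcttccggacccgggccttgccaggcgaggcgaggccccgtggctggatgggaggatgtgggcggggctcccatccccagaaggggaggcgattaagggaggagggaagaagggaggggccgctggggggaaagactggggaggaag
Tgfb1: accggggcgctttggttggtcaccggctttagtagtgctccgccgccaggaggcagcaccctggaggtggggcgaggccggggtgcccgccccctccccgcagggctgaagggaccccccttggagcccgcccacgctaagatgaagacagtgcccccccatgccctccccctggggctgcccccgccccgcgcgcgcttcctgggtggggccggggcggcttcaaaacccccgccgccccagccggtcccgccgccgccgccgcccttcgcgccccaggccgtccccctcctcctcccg
Both strands were searched for the E-box (CANNTG), the TATA box (TATAAA), the CCAAT box (CCAAT), a GC-rich SMAD element (GGCGCC) and the core of TCF and LEF sites (CTTTGT). Bmp4 held 3 E-box matches that overlap no other match, Tgfb1 held 0, and neither window held the letters of the other motifs. Of 32841 mouse promoters of this length, 72.3% held the E-box letters, 13.6% the TATA box, 37.4% the CCAAT box, 11.9% the SMAD element and 18.7% the TCF and LEF core. The Bmp4 window is 64% G or C and the Tgfb1 window 77%, where the median of all promoters is 52.7%. These matches are a description of the letters and no evidence of binding.

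Bmp4 had the largest difference among genes higher in BICC1_2 that passed the test. Its log2 intensity was 9.74, 9.79, 9.77 and 9.53 on the BICC1_2 arrays, against 8.65, 9.38, 8.93 and 8.96 on the arrays labelled BICC1_3. The lowest value came from BICC1_3 replicate 1, the array that stood apart, and the other arrays labelled BICC1_3 were still below every BICC1_2 array. Bmp4 was 166% of its level in the arrays labelled BICC1_3 (140 to 196), or 0.73 log2 (SE 0.11, adjusted p = 0.0174 by limma). Without the 2 arrays the difference was 0.60 and did not pass (adjusted p = 0.096). It also missed the threshold without BICC1_2 replicate 1, 2 or 3 or BICC1_3 replicate 3 or 4 (adjusted p = 0.0602 to 0.0848).

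Sostdc1 was higher in the same direction as the ligand. On the log2 scale its intensity was 7.33, 7.19, 7.15 and 6.99 on the BICC1_2 arrays, against 6.44, 6.71, 6.70 and 6.53 on the arrays labelled BICC1_3. The difference was 0.57 log2 (148% of the level in the arrays labelled BICC1_3, 129 to 171, adjusted p = 0.0244 by limma), and 0.52 without the 2 arrays (adjusted p = 0.177). It missed the threshold without BICC1_2 replicate 1, 2 or 3 or BICC1_3 replicate 1 or 4 (0.0561 to 0.103). The size of the difference depended on the treatment of low intensities, at 0.20 with the authors' table and 0.38 without background correction, both past the test.

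Tgfb1 went the other way. The probe read 8.22, 8.11, 8.22 and 8.16 on the BICC1_2 arrays, against 8.58, 8.47, 8.66 and 8.69 on the arrays labelled BICC1_3. Tgfb1 stood at 74.6% of its level in the arrays labelled BICC1_3, a difference of -0.42 log2 (SE 0.07, adjusted p = 0.0339 by limma), and -0.45 without the 2 arrays (adjusted p = 0.144). The call was lost on leaving out any 1 array (0.0513 to 0.161) other than BICC1_3 replicate 2, SC replicate 1 or 4 or BICC1_1 replicate 3. With the authors' table it was -0.26 and passed.

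For these 3 genes the arrays labelled BICC1_3 lay farther from SC than the BICC1_2 arrays did. Against SC, Bmp4 differed by 0.19 log2 in BICC1_2 and by -0.54 in the arrays labelled BICC1_3, Sostdc1 by 0.09 and -0.48, and Tgfb1 by -0.09 and 0.33. None of these differences from SC passed the test (adjusted p = 1.0 for each in BICC1_2, and 0.149, 0.108 and 0.168 in the arrays labelled BICC1_3). For Ergic1, Atg5 and Tnrc6c it was the BICC1_2 arrays that lay apart, at -1.10, -0.58 and -0.54 log2 from SC, where the arrays labelled BICC1_3 lay at 0.09, 0.08 and -0.10. Both sets of differences share the SC arrays. In all, 5 genes differed from SC in BICC1_2 (0.0523%) and 1 in the arrays labelled BICC1_3 (0.0105%), the steroid dehydrogenase gene Hsd3b2. Hsd3b2 was at 10.87 ± 0.06 in BICC1_2 and 11.17 ± 0.03 in the arrays labelled BICC1_3, a difference of -0.30 that did not pass (adjusted p = 0.203), but did with the authors' table (-0.29, adjusted p = 0.0477). Further Hsd3b2 probes were each detected on 0 of the 8 arrays, so these values rest on 1 probe.

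The remaining genes past the test had smaller falls. Rrm2b, a p53 target that encodes a ribonucleotide reductase subunit for DNA repair, was at 8.57, 8.54, 8.64 and 8.51 on the BICC1_2 arrays, against 9.03, 9.08, 8.90 and 9.04 on the arrays labelled BICC1_3 (-0.45 log2, adjusted p = 0.0227 by limma). It missed the threshold without the 2 arrays (-0.47, adjusted p = 0.096) and without BICC1_2 replicate 1, 2 or 4 or BICC1_3 replicate 1 or 4 (0.0561 to 0.109). Further Rrm2b probes were each detected on 0 of the 8 arrays, so the call rests on 1 probe. Get1 encodes a receptor subunit that inserts tail-anchored proteins into the endoplasmic reticulum membrane. It was at 10.12, 10.36, 10.24 and 10.05 on the BICC1_2 arrays, against 10.83, 10.58, 10.59 and 10.56 on the arrays labelled BICC1_3 (-0.45 log2, adjusted p = 0.030). Its highest value is that of BICC1_3 replicate 1, and the call was lost without the 2 arrays (-0.40, adjusted p = 0.134) and on leaving out any 1 array (0.0502 to 0.154) other than BICC1_2 replicate 2, BICC1_3 replicate 2, SC replicate 1 or BICC1_1 replicate 3.

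Tnrc6c encodes a GW182 protein, the partner through which Argonaute silences messenger RNAs bound by microRNAs. The log2 intensity was 7.91, 7.91, 7.88 and 7.80 on the BICC1_2 arrays, against 8.36, 8.43, 8.35 and 8.10 on the arrays labelled BICC1_3 (-0.43 log2, 74.1%, adjusted p = 0.0387 by limma). The value of replicate 4 was the low one in both groups. The call was lost without the 2 arrays (-0.42, adjusted p = 0.244) and on leaving out any 1 array (0.056 to 0.195) other than BICC1_3 replicate 4, SC replicate 4 or BICC1_1 replicate 3. With the authors' table it was -0.24 and passed. The unnamed probe lay at -0.45 log2 (adjusted p = 0.030), missed the threshold without the 2 arrays (-0.49, adjusted p = 0.096) and on leaving out any BICC1_2 array, BICC1_3 replicate 1, 2 or 4 or BICC1_1 replicate 1 or 4 (0.0513 to 0.124).

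**Figure D3:**
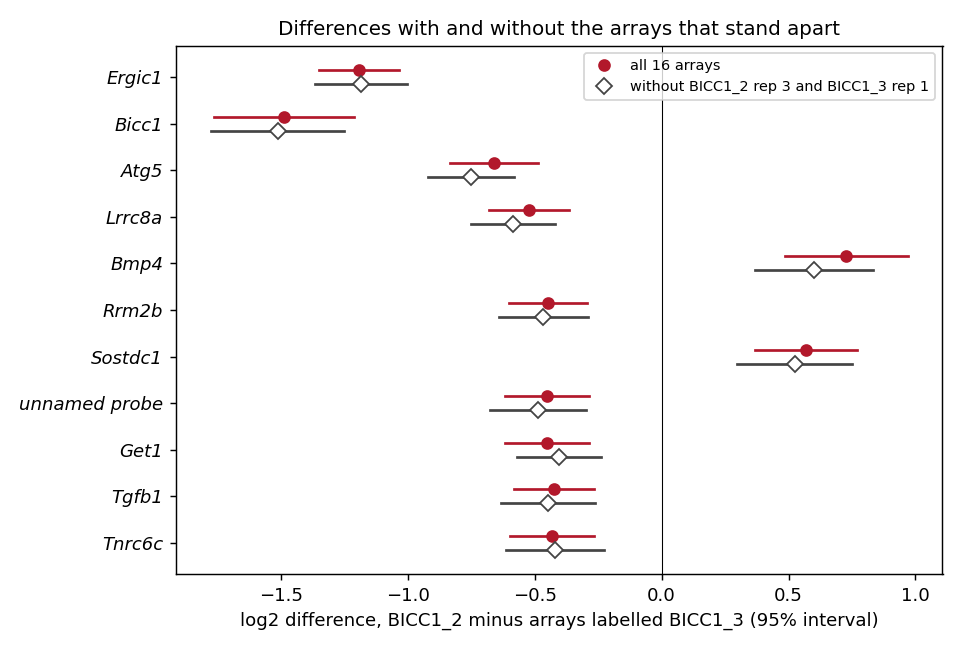
Log2 difference of BICC1_2 minus arrays labelled BICC1_3 with its 95% interval for Bicc1, as a description, and the 10 genes or probes past the test, with all 16 arrays in the fit (filled circles) and without BICC1_2 replicate 3 and BICC1_3 replicate 1 (open diamonds). Each difference keeps its sign, and Bmp4 lies at 0.73 with all arrays and at 0.60 without the 2.

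Several of the largest differences did not pass the test and had arrays within a group that disagreed. Myl1, a fast-muscle myosin light chain gene, had log2 intensities of 9.04, 9.49, 9.58 and 7.83 on the BICC1_2 arrays, against 4.85, 4.76, 7.55 and 8.85 on the arrays labelled BICC1_3 (2.48 log2, SE 0.98, adjusted p = 0.511 by limma). The groups overlap, and SC arrays spread from 5.09 to 9.18. Mmp13, which encodes the collagenase of hypertrophic cartilage and osteoblasts, was at 7.05, 7.97, 8.03 and 8.78, against 6.75, 7.24, 6.91 and 6.76 (1.04 log2, adjusted p = 0.261). BICC1_2 replicate 1 was the low one of its group, and without it Mmp13 lay at 1.34 log2 and passed (adjusted p = 0.0281), while with the authors' table it lay at 0.49 and did not. Cavin1, which encodes a coat protein of caveolae, was at 8.09, 7.69, 7.92 and 7.83 on the BICC1_2 arrays, against 9.92, 7.91, 9.27 and 9.00 on the arrays labelled BICC1_3 (-1.14 log2, adjusted p = 0.352). Replicate 2 was the low one among the arrays labelled BICC1_3, and without it Cavin1 lay at -1.51 log2 and passed (adjusted p = 0.0359). For Mmp13 and Cavin1 the omitted array was the one nearest the other group, and leaving it out widens the difference by construction. Neither gene passed in any other setting.

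Ecrg4, which encodes a secreted peptide precursor, was at 8.52, 8.01, 7.93 and 8.31 on the BICC1_2 arrays, against 6.18, 7.85, 7.13 and 7.19 on the arrays labelled BICC1_3 (1.10 log2, adjusted p = 0.204 by limma), with the lowest value on BICC1_3 replicate 1. Without BICC1_3 replicate 2, the highest of its group, it lay at 1.36 and passed (adjusted p = 0.0315), and with the authors' table it lay at 0.50 and did not pass. That replicate was the one nearest the BICC1_2 arrays, and Ecrg4 passed in no other setting. Among the genes with the lowest unadjusted p on the higher side were also the potassium channel gene Kcnj15 (0.34 log2, adjusted p = 0.111), Mrvi1 (0.63), the prostaglandin reductase gene Ptgr1 (0.59), the complement inhibitor gene Serping1 (0.47), the homeobox gene Meox2 (0.46), Cpq (0.31) and Ly6c1 (0.63). On the lower side Shisa5 lay at -0.38 log2 (adjusted p = 0.111), at 11.52 ± 0.04 in BICC1_2 and 11.90 ± 0.10 in the arrays labelled BICC1_3. It passed without BICC1_1 replicate 3 (-0.39, adjusted p = 0.0311), with array quality weights (0.0292) and with the authors' table (0.0368). A further Shisa5 probe lay at -0.46 and passed over all kept probes (adjusted p = 0.0413), and another, dimmer probe lay at -0.23.

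In a list of 14 tested genes for Bicc1 and its partners, none passed the test besides Bicc1, whose place was fixed by the choice of the pair. The list held polycystin and cilium genes such as Pkd1 and Ift88. It also held others, such as Cnot3, Cnot7, Dicer1, Tsc1, Tsc2, Dvl1 and Bicd2. Of the 14, 9 lay below 0 and 5 above, with a median of -0.08 log2 (8 and 6, median -0.02, without the 2 arrays). Over all genes tested the median was 0.01 and 53.27% lay above 0. Bicc1 is counted among those below 0 and in both medians, so these values do not describe its partners alone. Anks3, which encodes a binding partner of Bicc1, was at 9.15, 9.19, 9.12 and 9.23 on the BICC1_2 arrays, against 9.58, 9.48, 9.49 and 9.49 on the arrays labelled BICC1_3. The groups did not overlap, with BICC1_2 below, as for 1.76% of all genes tested. The difference of -0.33 log2 did not pass (adjusted p = 0.146 by limma). It passed with the authors' table (-0.26, adjusted p = 0.0391), and its further probes gave -0.49 and -0.42. The polycystin-1 gene Pkd1 lay at 0.05 and Anks6 at -0.08.

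The BMP and TGF-beta list had a median near 0. Of 38 tested genes for BMP and TGF-beta ligands, receptors, antagonists and targets, 2 were higher (Bmp4, Sostdc1) and 1 lower (Tgfb1) past the test. Of all genes tested, 0.0209% were higher and 0.0941% lower past it. Bmp4 and Sostdc1 were known from earlier results when the list was written, so these counts are a description. In the list 16 lay above 0 and 22 below, with a median of -0.01 log2 (18, 20 and -0.01 without the 2 arrays, when 0 passed). Of all genes tested, 53.27% lay above 0. The BMP target genes Id3 and Id1, which encode inhibitors of differentiation factors, lay at 0.44 and 0.33 log2 and did not pass (adjusted p = 0.463 and 0.507), and at 0.30 and 0.10 without the 2 arrays. Id2 and Id4 lay at 0.03 and 0.07, and at -0.24 and -0.03 without the 2 arrays. Id3 was lowest on BICC1_3 replicate 1 (9.34, against 9.90 to 10.10 on the other arrays labelled BICC1_3 and 10.12 to 10.45 on the BICC1_2 arrays). The receptor genes Bmpr1a, Bmpr2 and Acvr1 lay at -0.01, -0.08 and 0.06. Of 33 Wnt genes, 1 was higher past the test, which was Sostdc1 again, as both lists hold it. Of the 33, 21 lay above 0 and 12 below, and the median was 0.07 (22, 11 and 0.04 without the 2 arrays, when 0 passed). The secreted Wnt inhibitor genes Wif1 and Sfrp1 lay at 0.31 and 0.28, the pathway inhibitor gene Nkd2 at 0.31 and the Wnt enhancer gene Rspo3 at 0.27, none past the test.

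In the lists that hold Ergic1, Atg5, Tnrc6c and Rrm2b, no other member passed the test. Ergic1, Atg5 and Tnrc6c were known from earlier results when the lists were written, so their calls within these lists are a description. Of all genes tested, 0.115% passed. Of 35 early secretory pathway genes, Ergic1 alone passed, with 14 above 0, 21 below and a median of -0.04 log2 (19, 16 and 0.01 without the 2 arrays). Cope, which encodes a COPI coat subunit, lay at 0.26 (adjusted p = 0.445 by limma), and the COPII small GTPase gene Sar1a at -0.33 (adjusted p = 0.499). Of 27 autophagy genes, Atg5 alone passed, and Atg12, whose product is joined to ATG5, lay at -0.31 (adjusted p = 0.310) with 10.35 to 10.63 on the BICC1_2 arrays, against 10.71 to 10.96 on the arrays labelled BICC1_3. Of 22 genes of the RNA silencing machinery, Tnrc6c alone passed, 6 lay above 0 and 16 below, and the median was -0.08. Without the 2 arrays 0 passed, 9 lay above 0 and 13 below, and the median was -0.02. Of 27 p53 targets, Rrm2b alone passed, and 0 without the 2 arrays. The p53-induced cell death genes Bbc3 and Pmaip1 lay at 0.33 and -0.50 and did not pass. Further Bbc3 probes lay at 0.02 and -0.11, and a further Pmaip1 probe at -0.40.

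With all arrays, no gene that marks osteoblast identity or bone matrix passed the test. Of 19 osteoblast and mineralisation genes, 10 lay above 0 and 9 below (median 0.02 log2), and of 37 collagen and matrix genes, 18 and 19 (median -0.01). Without the 2 arrays the counts were 10 and 9 (0.03) for the osteoblast genes and 23 and 14 (0.04) for the matrix genes. Phex, which encodes an endopeptidase of phosphate and mineral control, lay at 0.37 (adjusted p = 0.352 by limma), detected on 4 BICC1_2 arrays and 2 arrays labelled BICC1_3. Mgp, whose product inhibits mineralisation, lay at 0.54 (0.23 without the 2 arrays). The proteoglycan gene Lum lay at 0.63, and Loxl4, which encodes a collagen cross-linking enzyme, at -0.54. Without BICC1_3 replicate 2 Loxl4 lay at -0.65 and passed (adjusted p = 0.0427), and with the authors' table it lay at -0.16 and did not pass. Loxl4 passed in no other setting. The collagen I genes Col1a1 and Col1a2 lay at -0.11 and 0.04, and Sp7 at 0.07. Of 40 endoplasmic reticulum stress genes none passed with all arrays, and 13 lay above 0 and 27 below (median -0.05; 17, 23 and -0.02 without the 2 arrays). The chaperone gene Calr, at -0.62, passed without BICC1_3 replicate 2 (-0.86, adjusted p = 0.0359) and in no other setting. Of 30 actin and YAP target genes none passed, and 8 lay above 0 and 22 below (median -0.07; 14, 16 and -0.02 without the 2 arrays).

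Respiratory and ribosomal genes had median differences above 0, and the shift was nearly gone without the 2 arrays. BICC1_3 replicate 1 was the low array, at -1.43 log2 relative to SC for complex I. The other arrays labelled BICC1_3 lay at 0.03, -0.02 and -0.02, and the BICC1_2 arrays at 0.05, 0.04, -0.22 and -0.01. Over all genes tested, 53.27% lay above 0 (53.7% without the 2 arrays). Of 33 complex I genes, 30 lay above 0 with a median of 0.34 log2, and without the 2 arrays 21 lay above 0 with a median of 0.03. Of 41 genes of complexes II to IV and ATP synthase, 33 lay above 0 (median 0.26), and 24 without the 2 arrays (0.01). Of 56 cytoplasmic ribosomal protein genes, 52 lay above 0 (median 0.18), and 37 without the 2 arrays (0.02). Of 70 mitochondrial ribosomal protein genes, 60 lay above 0 (median 0.15), and 35 without the 2 arrays (-0.001). None of these 200 genes passed the test with all arrays. Interferon-induced genes, which can respond to transfected RNA, had 22 of 28 above 0 (median 0.10), and 14 of 28 without the 2 arrays (0.001), and none passed.

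**Figure D4:**
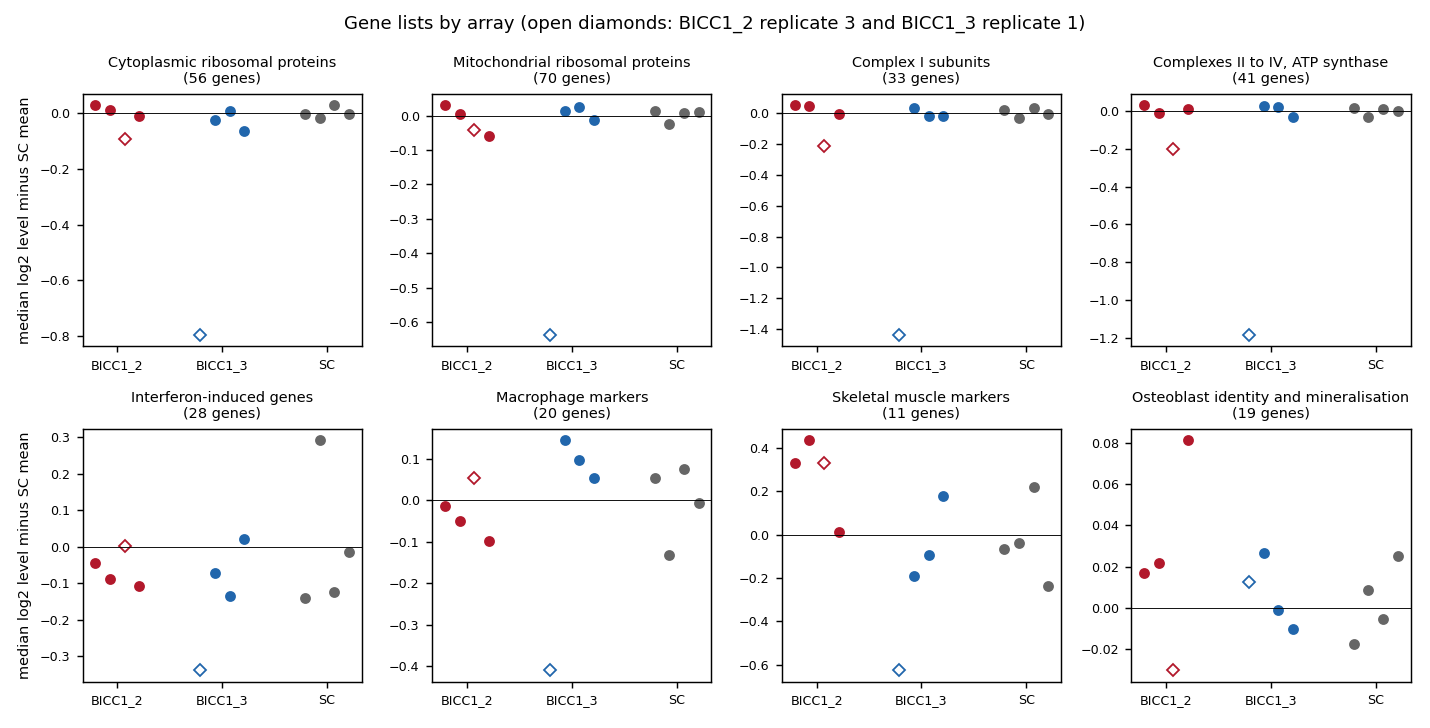
Median log2 level of 8 gene lists on each BICC1_2 array, each array labelled BICC1_3 and each SC array, relative to the SC mean, with open diamonds for the 2 arrays that stood apart; the vertical scales differ. BICC1_3 replicate 1 lies far below the rest for ribosomal and respiratory genes (-1.43 for complex I), and skeletal muscle markers are highest on BICC1_2 replicates 1 to 3.

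Skeletal muscle markers lay higher on most BICC1_2 arrays. Of 11 tested skeletal muscle markers, all lay above 0 with a median of 0.50 log2, and 7 had an unadjusted p under 0.05, as 8.28% of all genes did, but none passed limma's adjusted test. Without the 2 arrays, 10 lay above 0, the median was 0.31 and 2 had an unadjusted p under 0.05, as 6.88% of all genes did. Their median relative to SC was 0.33, 0.43, 0.33 and 0.01 on the BICC1_2 arrays, against -0.62, -0.19, -0.10 and 0.18 on the arrays labelled BICC1_3, so the groups overlapped. Their summed level was 4340 to 5165 intensity units on the BICC1_2 arrays, 3453 to 4116 on the arrays labelled BICC1_3 and 3717 to 4564 on the SC arrays. Of 6 defining muscle markers, Acta1 (10.87 in BICC1_2 and 10.67 in the arrays labelled BICC1_3) and Myog were detected on all 8 arrays and Myl1 on 6, while Myod1, Ckm and Tnnt3 were detected on none. In such mixed cultures more cells of a type and more RNA per cell cannot be told apart.

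Macrophage markers lay mostly below 0 once the 2 arrays were left out. With all arrays, 10 of 20 tested markers lay above 0 and 10 below, and without the 2 arrays 1 lay above and 19 below, with a median of -0.14 log2. None passed limma's test. Their summed level was 16660 to 20960 on the BICC1_2 arrays, 21260 to 23270 on the arrays labelled BICC1_3 and 18380 to 22100 on the SC arrays. Sum and median disagree on BICC1_3 replicate 1, which had the highest sum of the 8 arrays (23270) and the lowest median relative to SC (-0.41). The sum weighs bright markers most, and with all arrays the median difference was -0.007 log2. The lysozyme gene Lyz2 was at 11.45, 11.54, 11.88 and 11.35 on the BICC1_2 arrays, against 12.39, 11.95, 11.86 and 11.99 on the arrays labelled BICC1_3 (-0.50 log2, adjusted p = 0.505). With BICC1_1 replicate 3 left out beside the 2 arrays, Lyz2 kept that difference and passed (adjusted p = 0.0239). The groups overlap at BICC1_2 replicate 3 and BICC1_3 replicate 3. A further Lyz2 probe lay at -0.36 log2 and did not pass (adjusted p = 0.5 by limma over all kept probes). Of 7 defining macrophage markers, Ptprc and Itgam were detected on none of the 8 arrays and the other 5 on all. The part of muscle or macrophage cells in the differences given above was not tested.

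**Figure D5:**
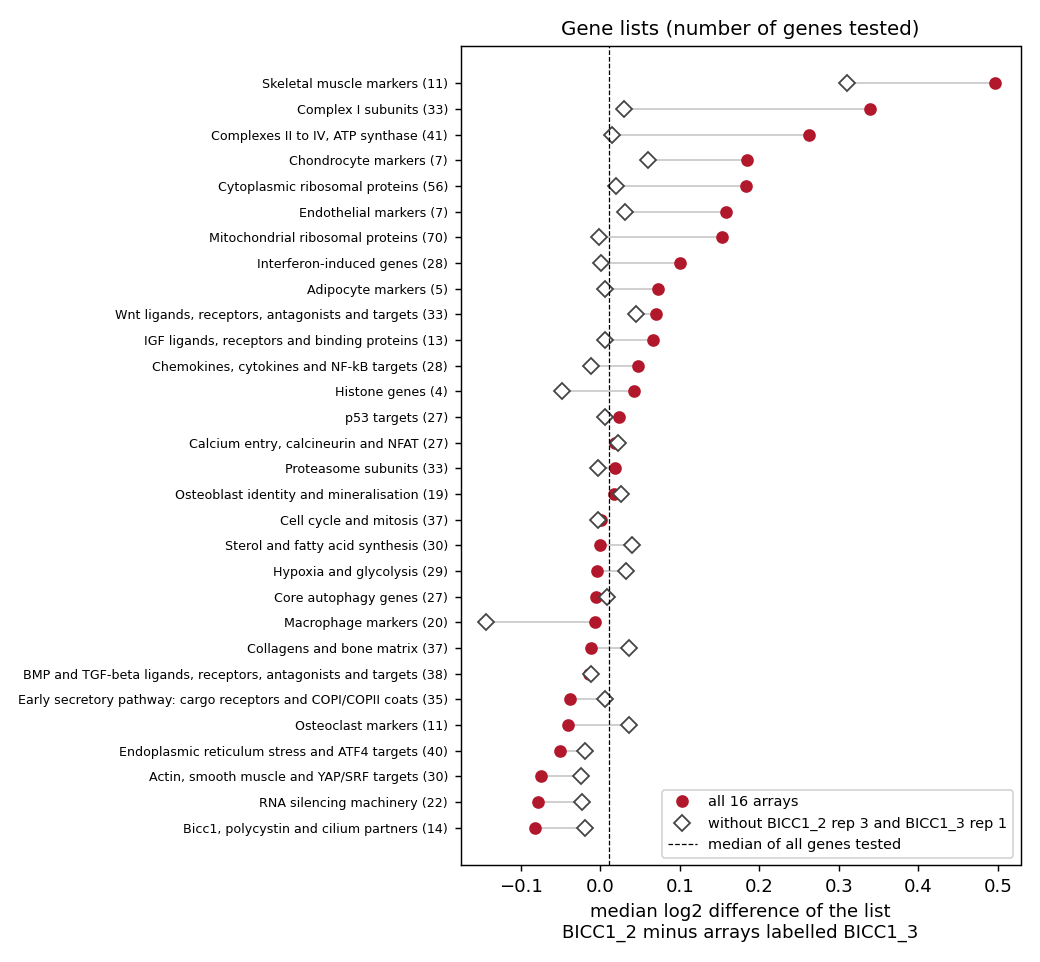
Median log2 difference of BICC1_2 minus arrays labelled BICC1_3 for each of 30 gene lists (number of genes tested in brackets), with all 16 arrays (filled circles) and without BICC1_2 replicate 3 and BICC1_3 replicate 1 (open diamonds); the dashed line is the median of all genes tested, 0.01. Respiratory, ribosomal and interferon lists lie near the line without the 2 arrays, skeletal muscle markers stay at 0.31 and macrophage markers lie at -0.14.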

How the data were processed

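Gene expression was measured on 16 bead arrays. The authors deposited mean bead intensity per probe, linear and without normalisation, per the file headers; the submitters' processing notes name GenomeStudio. A deposited detection fraction, headed as a p-value, runs near 1 for bright probes, and 1 minus it served as the detection p. The authors also deposited log2 values with equal quantiles on every array, whose transform is not given in the sources used here; they gave 1 alternative setting.

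The neqc function of limma 3.58.1 (R 4.3.3) corrected background and normalised by quantiles with an offset of 16, on the log2 scale. Of 25697 probes, 23978 carried 1 gene symbol, 0 several and 1719 none, and 23962 Entrez identifiers matched RefSeq (GRCm38.p6), which updated 0 symbols. The 12802 probes with a detection p under 0.05 on at least 4 arrays were kept, and the brightest probe over the 16 arrays stood for each gene (chosen among several for 2332 genes), which left 9560 (8832 named, 728 unnamed). Of these, 8472 were detected on all 8 arrays compared. The number of arrays limits the precision: the median SE of a difference was 0.108 log2.

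All 4 groups entered 1 limma model (12 residual and 3.962 prior degrees of freedom), and BICC1_2 minus BICC1_3 was tested with Benjamini-Hochberg adjustment over all 9560. Further probes were adjusted over all 12802 kept probes. Genes are named if past the test, if among the 10 with the lowest p in a direction, or the 8 without the 2 arrays, or the 4 of a list, or known from earlier results; other genes were named after their values were seen, for the size of their difference, as a further probe or as list members with a known role. The comparison, its genes and its 30 gene lists were chosen with earlier results of these data known. Other settings were tried in 29 alternatives. No slide or scan date was used here, so a batch could not be tested. The deposited table had 0 columns without a sample, and no arrays held identical values. Promoters come from RefSeq; Sostdc1 is named only.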

Additional observations from a re-analysis of the deposited data

Results flagged for a closer look

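In 30 groups of 4 arrays, the gap of the farthest array to its nearest neighbour, as a share of the group's range, was set against Dixon's 95% critical value, which chance exceeds in about 1 of 20 groups. Of these, 6 exceeded it, each through BICC1_3 replicate 1. The groups share arrays, and BICC1_3 replicate 1 was known beforehand to stand apart, so this count is a description. That array was the highest of its group for Get1 (10.83 log2, share 0.859) and for Bicc1 (10.70 log2, share 0.834). It was the lowest for the medians, relative to SC, of complex I genes (-1.43, share 0.966), of other respiratory and ATP synthase genes (-1.19, share 0.952), of mitochondrial ribosomal protein genes (-0.64, share 0.943) and of cytoplasmic ribosomal protein genes (-0.79, share 0.910). What sets this array apart was not tested.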

How the results depend on the processing

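Ergic1 passed in all 29 alternatives, Atg5 and Lrrc8a in 27, Bmp4 in 20, Rrm2b and Sostdc1 in 19, the unnamed probe in 16, Tgfb1 in 12, Get1 in 11 and Tnrc6c in 10, all with the same sign. The difference of Bicc1, a description, was -1.59 to -1.22. The count of 11 (2 higher, 9 lower) became 4 (0 and 4) without the 2 arrays, 7 (0 and 7) without BICC1_1 replicate 3 as well, 2 (0 and 2) with only the 8 arrays in the fit or with median scaling, and 17 (3 and 14) with the authors' table, where all 11 remained. Median scaling moved the median of all genes from 0.01 to 0.06 log2. In the fits that left out 1 array each, the count was 5 to 19, with 0 to 4 higher and 4 to 15 lower. It was 19 without BICC1_3 replicate 2 (9 of the 11 among them), 5 without BICC1_2 replicate 1, 2 or 3 or BICC1_3 replicate 1 or 4, 6 without BICC1_2 replicate 4, and 7 without BICC1_3 replicate 3 or BICC1_1 replicate 1 or 4. Array quality weights gave 10, all kept probes singly 15, and the other offset, filter, background and variance settings 11 each. Same-numbered BICC1_2 and BICC1_3 arrays deviated from their group means with correlations of -0.244, 0.134, -0.378 and -0.0734. The arrays that stood apart enter those means, so the correlations cannot decide whether the numbers pair arrays. With the replicate block the count was 6 (1 and 5), with 5 of the 11 among them. The fat cell marker Lpl, at 0.07 log2, lay at -0.00326 without the 2 arrays and at -0.00346 with BICC1_1 replicate 3 left out too. The causes were not tested. The smallest difference that passed was that of Tgfb1 (-0.42 log2), and 4 arrays a group limit what can pass below that.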
